A study of Rattus norvegicus with 6 samples.

Results

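The potassium channel genes of the rat were examined in cultured oligodendrocyte precursor cells (OPCs), the dividing glial cells that give rise to oligodendrocytes. They were taken as every gene of the deposited count table whose symbol begins with Kcn, which gave 92 of the table's 32883 genes, 75 of them pore-forming and 17 auxiliary or interacting subunits. The OPCs were primary cultures from the cerebral cortices of Sprague Dawley rats at postnatal day 0, or 0 to 2 by the study's methods (2 rats per culture). They were shaken off a mixed glial culture and kept in Neurobasal medium with B27 and N2. One group received ZJU-37 at 5 µM and the other an equal volume of its solvent DMSO, for 36 h by the sample labels (the study's methods give another time), with 3 libraries of poly-A RNA per group. ZJU-37 is a Nec-1s derivative that carries an added amide bond and inhibits the kinase RIPK1. No genetic change and no other agent is named for either group, and the cells were enriched by shaking and not by a sort. The study describes the libraries once as biological repeats and once as plate wells, so the p-values below measure the spread between these libraries, which may be technical.

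Potassium channels let potassium leave or enter a cell along its gradient and so hold the membrane near the potassium equilibrium potential. In the oligodendrocyte lineage, OPCs are known for voltage-gated delayed rectifier and A-type currents, and mature oligodendrocytes for inward rectifier currents that take up potassium released by axons. A channel is built from pore-forming subunits, and auxiliary subunits set its gating and its delivery to the membrane.

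The libraries held between 13935865 and 24097927 counts, so that the 3 counts that a count of 0 still allows equal 0.124 to 0.219 CPM, the counts relative to library size with TMM scaling. This limit covers counting error only. The Kcn genes together took between 0.0563% and 0.0645% of the counts in the DMSO libraries and between 0.0674% and 0.0792% in the ZJU-37 libraries. As a check of the labelled cell type, all 9 OPC markers found in the table were detected (4426 to 5168 CPM summed with DMSO, 4613 to 6361 with ZJU-37). The sum hides opposed changes, as 4 rose and 4 fell in the edgeR test described below, where 9.43% of all tested genes rose and 5.58% fell. By log2 fold change, Pdgfra (1.10), Cspg4 (1.04), Olig1 (0.64) and Ptprz1 (0.54) rose. Those that fell were Gpr17 (-3.43), Nkx2-2 (-1.74), Vcan (-1.29) and Sox10 (-0.61). RNA of other cells was present as well. The 12 oligodendrocyte markers summed to between 13595 and 25875 CPM with DMSO and to between 5381 and 10819 with ZJU-37, the 10 microglia markers to between 2116 and 3636 and between 1521 and 3116, the 10 astrocyte markers to between 1106 and 1759 and between 981 and 1454, and the 12 neuron markers to between 906 and 1226 and between 787 and 1036. Vascular and meningeal markers were low, between 28.4 and 114 CPM in all libraries, with Cldn5 at 0. In the same edgeR test, 1 astrocyte marker rose and 1 fell (2 and 5 with the replicate block). Of the 6 tested vascular markers, 0 were called by that test or by DESeq2, with no unadjusted p under 0.05. With the replicate block 1 of them, Lum, was lower (adjusted p = 0.0458).

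Of the 92 Kcn genes, 66 passed the filter on low counts and are called expressed here, and 46 reached a group mean of at least 1 CPM per kb of gene length, the scale on which levels of different genes are compared. The gene length is that of the deposited table, so a short gene model raises a value on this scale. With DMSO the highest level was that of Kcnj10, the inward rectifier known for potassium uptake by glia, at 34.7 CPM per kb. The strong inward rectifiers Kcnj2 (19.1 CPM per kb) and Kcnj12 (14.8), the BK channel subunit Kcnmb4 (13.8), the leak channel Kcnk10 (8.49), the calcium-binding subunit Kcnip3 (8.35) and the A-type channel Kcnd3 (8.03) followed. With ZJU-37 the order was Kcnip3 (27.3 CPM per kb), Kcnj10 (24.4), Kcnk10 (17.5), Kcnj2 (14.4) and the delayed rectifier Kcna3 (10.5), and Kcnj12 stood at 2.80. The summed level of all members was 224 ± 15.9 CPM per kb (SD, n = 3) with DMSO and 235 ± 8.85 with ZJU-37, and these ranges overlapped. The 12 highest members together held 61.5% ± 0.818 of that sum with DMSO and 59.1% ± 1.27 with ZJU-37. The share of Kcnj10 was 15.4% ± 1.45 with DMSO and 10.4% ± 1.33 with ZJU-37, and that of Kcnip3 was 3.73% ± 0.210 and 11.6% ± 0.385.

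**Figure D1:**
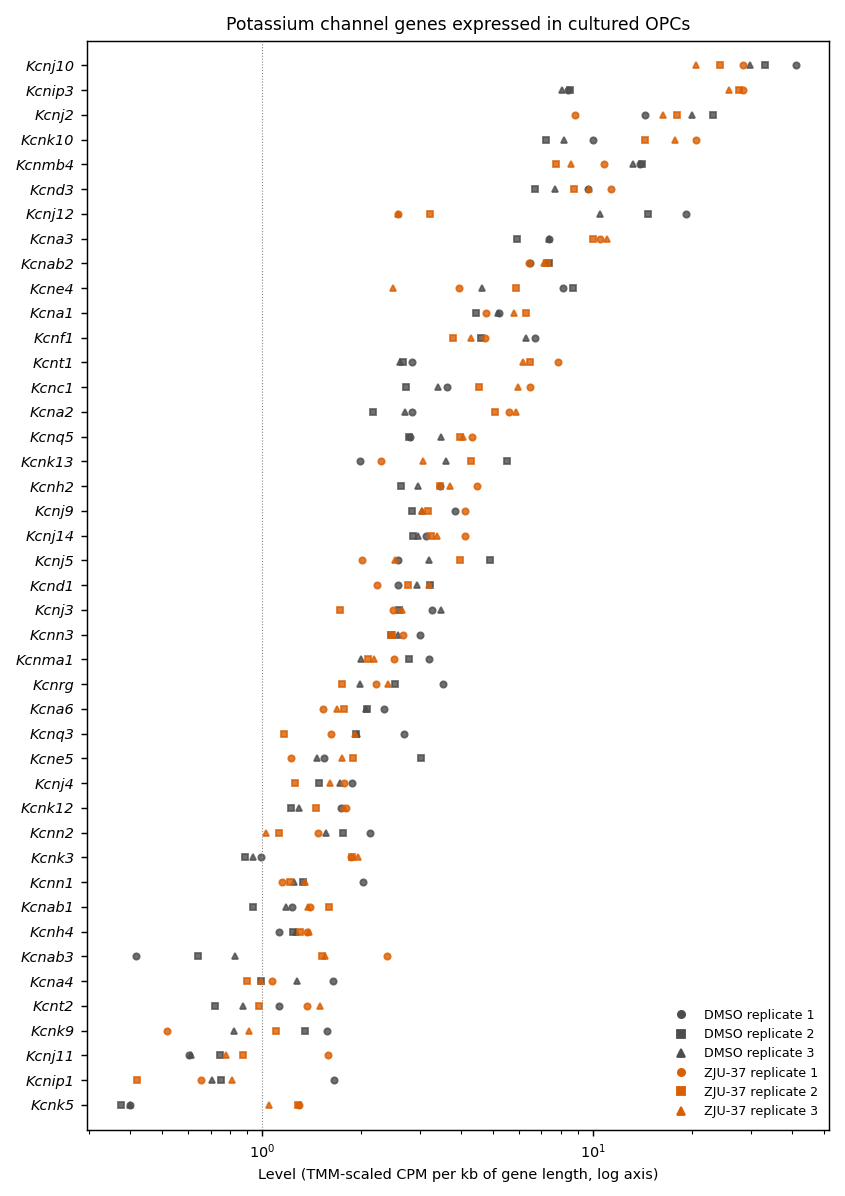
Level of 43 of the 46 well expressed potassium channel genes in each library, in TMM-scaled CPM per kb of gene length on a log axis, with grey marks for DMSO, orange marks for ZJU-37 and 1 mark shape per replicate number. The orange marks of Kcnip3 (27.3 CPM per kb on average) and Kcnj12 (2.80) lie apart from the grey ones (8.35 and 14.8).

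The remaining 26 members did not pass the filter and were not tested, with at most 18 counts in any library. Kcna10, Kcng4, Kcnu1 and Kcnv2 had 0 counts in all 6 libraries, and 11 members, these 4 included, had at most 3 counts in every library. Among the untested members were the ATP-sensitive pore gene Kcnj8, the Kir genes Kcnj13 and Kcnj15, and 6 of the 14 leak channel genes. Kcnk1, which encodes a leak channel reported in glia, had 13, 8 and 18 counts with DMSO and 7, 5 and 2 with ZJU-37, too few to pass.

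Of the 66 tested Kcn genes, 12 rose and 3 fell with ZJU-37, at a Benjamini-Hochberg adjusted p under 0.05 in edgeR's quasi-likelihood test over all 14670 tested genes. The 15 genes were 22.7% of the tested members, against 15.0% of all tested genes. The higher genes were 18.2% of the members against 9.43% of all genes, and the lower ones 4.55% against 5.58%. Those that rose included Kcnip3, Kcnt1, Kcna2, Kcnk5, Kcnk3, Kcnk10, Kcna3, Kcnc1, Kcnab3, Kcnj16 and Kcnq5, and those that fell were Kcnj12, Kcna7 and Kcnmb4. A change of at least 1 on the log2 scale was seen in 8 of the higher genes (12.1% of the members, against 2.79% of all genes) and a change of at most -1 in 2 of the lower ones (3.03% against 1.45%). In bulk RNA of this kind, a change in the number of cells of a type and a change of RNA per cell cannot be told apart.

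The median log2 fold change of the 66 genes was 0.09, against -0.03 over all tested genes, and the median size of the change was 0.44 against 0.19. The members were also lower in level than the genes at large, with a median of 4.40 CPM against 27.2. In each of the 15 called genes the 3 ZJU-37 libraries lay apart from the 3 DMSO libraries, as they did in 27 of the 66 members (40.9%) and in 35.2% of all tested genes. DESeq2 called the same 15 and added Kcnj10, which made 12 higher and 4 lower (10.0% and 6.88% of all genes). Of the 15, the 8 genes Kcnip3, Kcnt1, Kcnj12, Kcna2, Kcnk5, Kcnk3, Kcnk10 and Kcna3, were called in all 6 fits that left out 1 library. The count of higher genes was 7 without DMSO replicate 2 or without ZJU-37 replicate 3, and the count of lower genes was 1 without DMSO replicate 2 or 3 and without ZJU-37 replicate 2 or 3. With the replicate number as a block, 25 members were called (37.9%, against 32.1% of all genes), of which 16 were higher (24.2%, against 16.2% of all genes) and 9 lower (13.6%, against 15.9%). These included all 15, and added 4 genes as higher, Kcnd3, Kcnh2 and Kcnt2 among them, and Kcna6, Kcne4, Kcnf1, Kcnj2, Kcnj5 and Kcnj10 as lower.

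**Figure D2:**
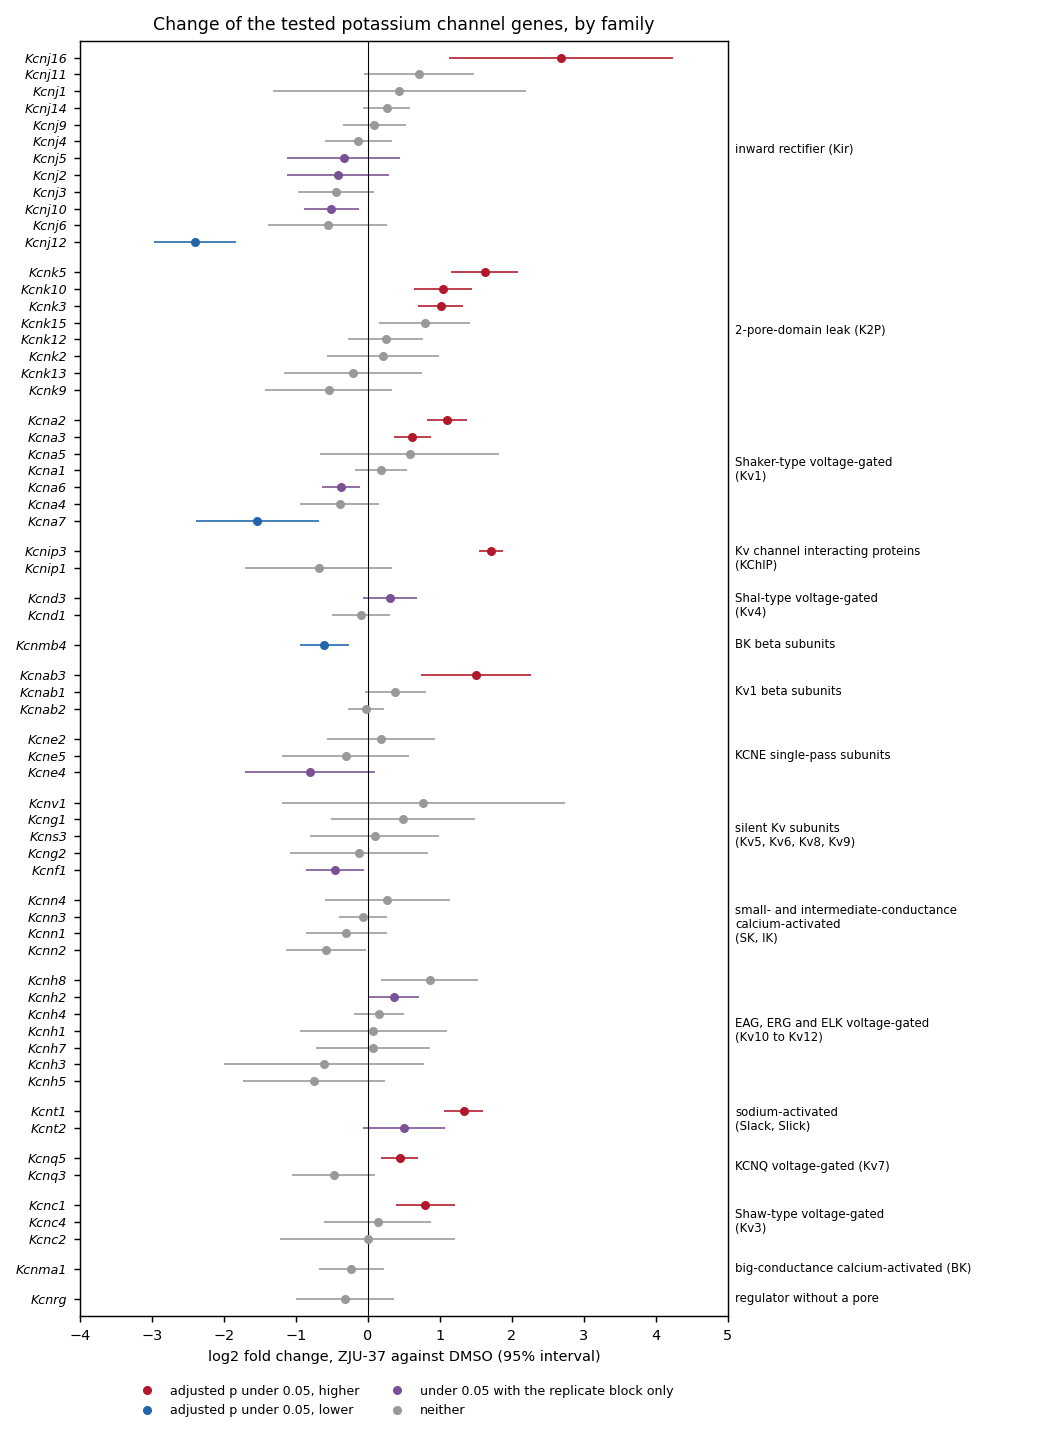
log2 fold change of 63 of the 66 tested potassium channel genes, ZJU-37 against DMSO, with 95% intervals from the fit over all genes, grouped by family. Red points are 11 genes that rose, blue points the 3 that fell, purple points 9 genes that passed the threshold with the replicate block only and grey points the others; the leak channel family has 3 red points and no blue one, and Kcnj12 lies farthest to the left at -2.40.

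**Figure D3:**
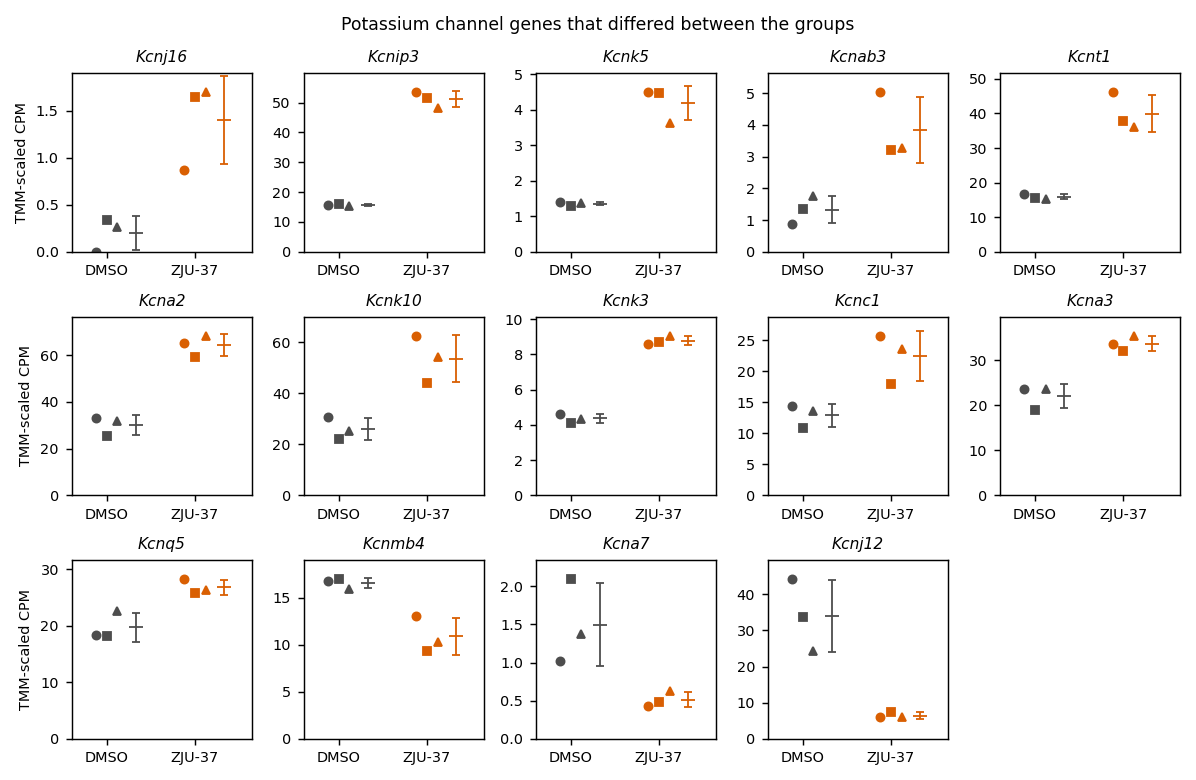
TMM-scaled CPM of 14 of the 15 called genes in each library (circle, square and triangle for replicates 1, 2 and 3), with the group mean and SD (n = 3) to the right of the marks and every axis starting at 0. No DMSO mark overlaps the range of the ZJU-37 marks in any panel.

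The inward rectifiers (Kir) pass potassium more readily into the cell than out of it. As a family they were the most highly expressed, and their summed level was 84.8 ± 7.34 CPM per kb (SD, n = 3) with DMSO and 58.0 ± 3.57 with ZJU-37. The libraries lay between 76.4 and 90.3 with DMSO and between 55.1 and 62.0 with ZJU-37, without overlap, and no test was run on sums. Of the 15 Kir genes 12 were tested, 1 rose and 1 fell. Kcnj12, a strong rectifier best known from heart and muscle, measured 44.1, 33.8 and 24.2 CPM with DMSO and 5.95, 7.42 and 5.95 CPM with ZJU-37. Every ZJU-37 library was far below every DMSO library, although the DMSO libraries differed among themselves. The mean fell from 34.1 ± 9.96 to 6.44 ± 0.849 CPM, 5.29-fold, with a log2 fold change of -2.40 (SE 0.24, 95% interval -2.97 to -1.83, adjusted p = 0.00126). It was the largest decrease of the 66 tested members.

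Kcnj10 measured 58.3, 47.1 and 42.4 CPM with DMSO and 40.4, 34.5 and 29.2 CPM with ZJU-37. The groups did not overlap, and replicate 1 was highest and replicate 3 lowest in both. The log2 fold change was -0.51 (SE 0.16, 95% interval -0.88 to -0.13) with an adjusted p of 0.0845 in edgeR, of 0.000208 with the replicate block and of 0.0380 with DESeq2. Per kb, Kcnj10 stood 2.35 times above Kcnj12 with DMSO and 8.74 times above it with ZJU-37. Kcnj16 encodes a subunit that forms no working channel alone and joins Kcnj10 in pH-sensitive channels. It had 0, 6 and 5 counts with DMSO and 16, 34 and 41 with ZJU-37, that is 0.201 ± 0.178 and 1.40 ± 0.466 CPM. All 3 treated libraries were above the controls, at a level that stayed low (0.793 CPM per kb with ZJU-37). Its log2 fold change of 2.68 was the largest increase and had a wide interval (1.13 to 4.23, adjusted p = 0.0373), and the call was lost in the 4 fits without DMSO replicate 2 or 3 or ZJU-37 replicate 2 or 3 (adjusted p from 0.0787 to 0.114).

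Kcnj2, a strong rectifier that sets the resting potential of many cells, lies 47.5 kb from Kcnj16 on chromosome 10 in the coordinates of the table, whose genome build is not named. It measured 24.1, 38.8 and 33.6 CPM with DMSO and 14.8, 30.1 and 27.4 CPM with ZJU-37. The groups overlapped, while each ZJU-37 library was below the DMSO library of the same number. On the log2 scale the fold change was -0.42 (95% interval -1.12 to 0.29, adjusted p = 0.423), and the adjusted p was 0.00502 with the replicate block. Kcnj5, a G-protein-gated subunit, had the same order of libraries, with 12.4, 23.6 and 15.4 CPM against 9.62, 19.1 and 12.1 CPM (log2 fold change -0.34, adjusted p = 0.571, and 0.0233 with the block). The other G-protein-gated subunits Kcnj3 (-0.45), Kcnj6 (-0.56) and Kcnj9 (0.09), and the rectifiers Kcnj1 (0.43), Kcnj4 (-0.13), Kcnj11 (0.72) and Kcnj14 (0.26), did not pass the threshold in either fit, these values being log2 fold changes.

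The oligodendrocyte markers as a sum moved in the same direction as Kcnj12 and Kcnj10, although Mog did not (log2 fold change 0.07, adjusted p = 0.857 in edgeR). By replicate number, their sum with DMSO was 25875, 18808 and 13595 CPM, and with ZJU-37 it was 9513, 10819 and 5381 CPM. All 12 were detected, and Cnp, Myrf and Bcas1 fell (8 of the 12 with the block). The markers of astrocytes, which also express Kcnj10, summed to 1551, 1106 and 1759 CPM with DMSO and to 1208, 981 and 1454 CPM with ZJU-37. Of the 10, Sox9 rose and Aldoc fell, and with the block Aqp4 (log2 fold change -0.97 in that fit), Gfap (-0.75), Gja1 (-0.51) and Fgfr3 (-0.29) were lower as well and S100b was higher. The microglia markers summed to 2116, 3636 and 2692 CPM with DMSO and to 1521, 3116 and 2199 CPM with ZJU-37. None of the 10 was called by edgeR or by DESeq2, none had an unadjusted p under 0.05, and 4 were lower with the block. Kcnj2, Kcnj5, the leak channel gene Kcnk13 and the beta subunit gene Kcnab2 had this order of replicates in both groups, with 1 lowest and 2 highest. The part of these cell types in the values of these genes was not tested.

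**Figure D4:**
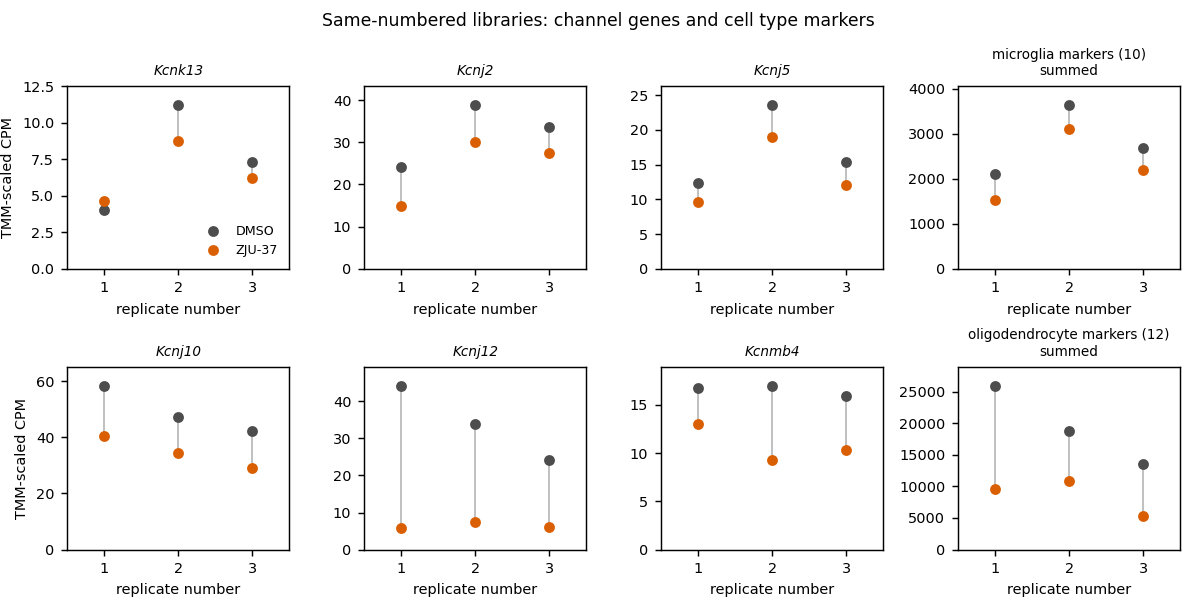
TMM-scaled CPM of 6 channel genes and of the summed markers of microglia and oligodendrocytes, by replicate number, with grey points for DMSO, orange points for ZJU-37, lines joining libraries of the same number and every axis starting at 0. Kcnk13, Kcnj2 and Kcnj5 are lowest in replicate 1 and highest in replicate 2, as the microglia markers are (2116, 3636 and 2692 CPM with DMSO), and Kcnj10 is lower with ZJU-37 in each of the 3 pairs.

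The 2-pore-domain channels carry the leak current that sets the resting potential. All 3 called genes of this family rose, and its summed level was 17.9 ± 0.886 CPM per kb with DMSO and 28.3 ± 2.23 with ZJU-37, without overlap of the libraries. Kcnk10, a channel opened by membrane stretch and lipids, was the most highly expressed of them. It measured 30.7, 22.1 and 25.1 CPM with DMSO and 62.5, 44.0 and 54.2 CPM with ZJU-37. Every treated library was above every control library, and the pairs of equal number differed by 1.03, 0.99 and 1.11 on the log2 scale. Its log2 fold change was 1.05 (SE 0.17, adjusted p = 0.00800). Kcnk3, an acid-sensitive leak channel, had 4.60, 4.12 and 4.35 CPM with DMSO and 8.60, 8.68 and 9.05 CPM with ZJU-37. The replicates were close together in both groups, and the mean rose 2.01-fold from 4.36 ± 0.239 to 8.78 ± 0.242 CPM (log2 fold change 1.01, SE 0.13, adjusted p = 0.00318).

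Kcnk5, a leak channel opened by alkaline pH, had 1.39, 1.299 and 1.38 CPM with DMSO and 4.49, 4.46 and 3.64 CPM with ZJU-37. These values rest on 19 to 26 counts per control library and 83 to 92 per treated library. Its log2 fold change was 1.62 (SE 0.20, 95% interval 1.16 to 2.09, adjusted p = 0.00234). Its neighbour Kcnk16, 72.4 kb away on chromosome 15, had at most 1 count. Among the 5 other tested leak channel genes, the log2 fold changes were 0.79 for Kcnk15, 0.25 for Kcnk12, 0.21 for Kcnk2, -0.20 for Kcnk13 and -0.55 for Kcnk9, and none passed the threshold in either fit. Kcnk2, a close relative of Kcnk10, measured 3.14, 1.58 and 2.71 CPM with DMSO and 3.35, 2.04 and 3.18 CPM with ZJU-37 (adjusted p = 0.726). The 95% interval of its log2 fold change reached from -0.56 to 0.99. The span of Kcnk9 overlaps that of Trappc9, which had 6249 counts against 193 of Kcnk9, so its counts are uncertain.

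The Shaker-type genes (Kcna) encode the delayed rectifiers and A-type channels known from OPC recordings, and Kcna3 in particular is known for a role in the division of glial cells. In the table Kcna3 and Kcna2 are neighbours on chromosome 2 (209766512 to 209769711 and 209838869 to 209852471, plus strand, 69.2 kb apart), and both rose. Kcna2, a delayed rectifier of axons, measured 33.2, 25.3 and 31.7 CPM with DMSO and 65.3, 59.1 and 68.2 CPM with ZJU-37. The groups were well apart, with a higher value in each ZJU-37 library of a pair. The log2 fold change was 1.10 (SE 0.12, adjusted p = 0.00148) and the ratio of the means 2.14. Kcna3 measured 23.6, 18.9 and 23.6 CPM with DMSO and 33.6, 32.0 and 35.4 CPM with ZJU-37. All 3 treated libraries were above the controls, with replicate 2 lowest in both groups. The log2 fold change was 0.61 (SE 0.11, 95% interval 0.36 to 0.87, adjusted p = 0.0111). The span of Kcna3 overlaps that of the predicted gene AABR07012826.1 on the same strand (817 counts in all, against 3240), which had a log2 fold change of 0.88, and how the counting divided reads between them is not known. Kcna10, 68.1 kb beyond Kcna2, had 0 counts in all libraries.

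The start regions of these neighbours are shown because both genes rose, and those of Kcnip3 and Kcnk5 because they had the largest increases among the genes called in all 6 fits that left out 1 library. The RefSeq promoter table of assembly GRCr8 gives 300 bases per gene, 250 before the start and 50 from it on, for 62 of the 92 symbols, 10 of the 15 called genes among them. The windows below are written on the strand of the gene. They lie at chr2:197320074-197320373 (plus strand) for Kcna3, chr2:197393280-197393579 (plus strand) for Kcna2, chr3:135195361-135195660 (minus strand) for Kcnip3 and chr15:4171375-4171674 (plus strand) for Kcnk5, and capitals mark the GC box, GGGCGG on either strand.
Kcna3: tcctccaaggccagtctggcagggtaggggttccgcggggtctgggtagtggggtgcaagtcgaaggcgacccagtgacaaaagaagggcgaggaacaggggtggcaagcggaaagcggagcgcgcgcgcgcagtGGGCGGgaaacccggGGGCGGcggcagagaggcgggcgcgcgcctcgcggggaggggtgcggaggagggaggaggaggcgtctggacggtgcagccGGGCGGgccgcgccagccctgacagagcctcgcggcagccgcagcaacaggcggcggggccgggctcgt
Kcna2: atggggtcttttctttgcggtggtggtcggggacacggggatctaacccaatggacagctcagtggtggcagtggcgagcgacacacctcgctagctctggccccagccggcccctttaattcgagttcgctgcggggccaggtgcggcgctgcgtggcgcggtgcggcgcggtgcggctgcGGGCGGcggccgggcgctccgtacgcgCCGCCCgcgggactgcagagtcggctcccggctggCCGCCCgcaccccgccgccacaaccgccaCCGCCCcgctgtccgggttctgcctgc
Kcnip3: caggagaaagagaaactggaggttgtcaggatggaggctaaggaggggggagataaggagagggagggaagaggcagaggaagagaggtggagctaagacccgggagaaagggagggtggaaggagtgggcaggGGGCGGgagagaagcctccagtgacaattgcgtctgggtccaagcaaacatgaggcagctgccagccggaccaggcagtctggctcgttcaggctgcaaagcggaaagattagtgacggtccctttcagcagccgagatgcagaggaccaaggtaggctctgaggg
Kcnk5: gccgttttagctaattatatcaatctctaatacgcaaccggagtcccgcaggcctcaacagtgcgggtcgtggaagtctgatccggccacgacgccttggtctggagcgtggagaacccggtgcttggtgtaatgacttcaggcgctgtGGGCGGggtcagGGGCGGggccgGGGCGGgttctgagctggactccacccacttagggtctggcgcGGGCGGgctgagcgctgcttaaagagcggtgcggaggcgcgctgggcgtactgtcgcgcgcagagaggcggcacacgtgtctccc

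The GC box occurs 3 times in the window of Kcna3, 4 times in that of Kcna2, 1 time in that of Kcnip3 and 4 times in that of Kcnk5. It was found in 34 of the 68 Kcn promoters (50.0%) and in 33.1% of all 33469 promoters of the table. Kcn promoters were richer in G and C, with a median of 60.8% against 51.7%, and the 4 printed windows had 74.0%, 73.3%, 59.0% and 64.7%. The TATA box TATAAA was found in 2.94% of the Kcn promoters against 14.2% of all, the AP-1 site TGANTCA in 4.41% against 7.33% and the NF-kB site in 10.3% against 7.51%, each on both strands. Overlaps between motifs were counted for each motif separately. Among the 10 promoters listed for 9 of the genes that rose, 8 held a GC box, 0 a TATA box, 1 an AP-1 site and 2 an NF-kB site. These matches describe letters in the windows and not sites in use.

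Kcna7, a Shaker-type channel known from heart and skeletal muscle, fell from a low level, with 14, 37 and 26 counts with DMSO and 8, 10 and 15 with ZJU-37. In CPM the means were 1.498 ± 0.543 and 0.512 ± 0.0967 (log2 fold change -1.53, SE 0.36, adjusted p = 0.0319), and the call was kept in only 1 of the 6 fits that left out a library, that without DMSO replicate 1 (adjusted p from 0.0782 to 0.108 in the others). Kcna6 measured 15.6, 13.9 and 13.8 CPM with DMSO and 10.3, 11.8 and 11.3 CPM with ZJU-37. The groups did not overlap, and its log2 fold change of -0.37 had an adjusted p of 0.0717, the nearest above the threshold, and of 0.0326 with the block. Kcna1 (log2 fold change 0.19, adjusted p = 0.490), Kcna4 (-0.39, 0.327) and Kcna5 (0.58, 0.537) overlapped between the groups. Kcna5, which encodes a delayed rectifier described in cultured glia, had only 3 counts in DMSO replicate 1 and between 16 and 37 in the other libraries. Summed over the 8 genes, the Shaker-type level was 18.7 ± 1.81 CPM per kb with DMSO and 25.1 ± 1.15 with ZJU-37.

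Of the 3 cytoplasmic beta subunits that join Shaker-type pores, 1 rose. Kcnab3 measured 0.876, 1.36 and 1.75 CPM with DMSO and 5.03, 3.20 and 3.27 CPM with ZJU-37. Its log2 fold change was 1.503 (SE 0.32, adjusted p = 0.0233), and the call was lost in the 4 fits without DMSO replicate 1 or 2 or ZJU-37 replicate 1 or 3 (adjusted p from 0.0549 to 0.0829). Kcnab2, the most highly expressed beta subunit gene, had 12.9, 14.6 and 14.3 CPM with DMSO and 12.7, 14.4 and 14.1 CPM with ZJU-37. Here the groups lay on top of each other, and the 95% interval of the log2 fold change reached from -0.27 to 0.23. Its sign (-0.02) turned to 0.01 with scaling by library size only. Kcnab1 had a log2 fold change of 0.38 (adjusted p = 0.222).

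Among the other voltage-gated pores, those of the Shaw type (Kcnc) open and close fast at high voltage. Kcnc1 measured 14.4, 10.8 and 13.5 CPM with DMSO and 25.7, 18.0 and 23.6 CPM with ZJU-37. Treated libraries were above the controls in every pair, by 0.84, 0.73 and 0.80 on the log2 scale. Kcnc1 had a log2 fold change of 0.80 (SE 0.17, adjusted p = 0.0230), and the call was lost without DMSO replicate 2 or 3 or ZJU-37 replicate 3 (adjusted p from 0.0669 to 0.0780). Kcnc2 and Kcnc4 were expressed below 1 CPM per kb and did not pass.

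Shal-type pores (Kcnd) carry the A-type current and work with the calcium-binding Kcnip subunits and the membrane partners Dpp6 and Dpp10. Kcnip3, also known as calsenilin and described as a calcium-dependent transcriptional repressor, had the smallest p of all members. It measured 15.8, 16.0 and 15.2 CPM with DMSO and 53.5, 51.7 and 48.3 CPM with ZJU-37. The replicates were close to each other in both groups, and no treated library came near a control. The mean rose 3.27-fold, from 15.6 ± 0.417 to 51.2 ± 2.65 CPM (log2 fold change 1.71, SE 0.07, 95% interval 1.54 to 1.88, adjusted p = 0.000132). The start region printed above holds 1 GC box. The other tested member of its family, Kcnip1, measured 2.85, 1.299 and 1.22 CPM with DMSO and 1.14, 0.733 and 1.41 CPM with ZJU-37 (log2 fold change -0.68, adjusted p = 0.362). Kcnip2 and Kcnip4 were not tested, with at most 16 counts.

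The 2 Shal-type pore genes, which Kcnip3 can join, gave 0 calls with edgeR and with DESeq2 and no unadjusted p under 0.05. Kcnd3 had the highest level of the voltage-gated pores over all libraries (8.996 CPM per kb). With ZJU-37 alone Kcna3 was higher, at 4.48% of the summed level of all members against 4.22% for Kcnd3. Kcnd3 measured 66.2, 45.8 and 52.4 CPM with DMSO and 77.5, 59.9 and 66.3 CPM with ZJU-37. The groups overlapped, while all 3 pairs were higher with ZJU-37. Kcnd3 had a log2 fold change of 0.31 (95% interval -0.06 to 0.68, adjusted p = 0.254), and the adjusted p was 0.00314 with the block. Kcnd1 had a log2 fold change of -0.10 (adjusted p = 0.758). Dpp10 fell, with 16.0, 15.4 and 13.1 CPM with DMSO and 7.08, 6.01 and 5.25 CPM with ZJU-37 (log2 fold change -1.28, SE 0.16, adjusted p = 0.00246). Dpp6, at 47.0 ± 7.21 and 53.7 ± 7.98 CPM, had a log2 fold change of 0.19 (adjusted p = 0.462, and 0.0307 with the block).

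Kcnq genes encode the M-type channels, which open slowly near the resting potential. Kcnq5 measured 18.3, 18.2 and 22.7 CPM with DMSO and 28.2, 25.8 and 26.4 CPM with ZJU-37. Its log2 fold change was 0.44 (SE 0.11) with an adjusted p of 0.0408, the nearest below the threshold, and the call was kept in only 1 fit that left out a library, that without DMSO replicate 3 (adjusted p from 0.0757 to 0.134 in the others). Its partner Kcnq3 had a log2 fold change of -0.48 (adjusted p = 0.258), and the summed level of the family was 8.55 ± 1.58 CPM per kb with DMSO and 8.40 ± 1.14 with ZJU-37.

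Sodium-activated channels are opened by sodium inside the cell. Kcnt1 measured 16.7, 15.6 and 15.3 CPM with DMSO and 46.1, 37.8 and 36.0 CPM with ZJU-37. The lowest treated library was more than 2 times the highest control. The mean rose 2.52-fold (log2 fold change 1.33, SE 0.11, 95% interval 1.06 to 1.60, adjusted p = 0.000613). Kcnt2 had means of 5.18 ± 1.16 and 7.31 ± 1.55 CPM with overlapping groups (log2 fold change 0.50, adjusted p = 0.225, and 0.0381 with the block).

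The big-conductance calcium-activated (BK) channel consists of the pore Kcnma1 and of beta subunits, of which Kcnmb4 is the one known from brain. Kcnmb4 measured 16.7, 17.0 and 15.9 CPM with DMSO and 13.0, 9.31 and 10.3 CPM with ZJU-37. All treated libraries were below the controls, and the log2 fold change was -0.61 (SE 0.14, adjusted p = 0.0335). The call was lost with scaling by library size only (adjusted p = 0.0570) and in each fit that left out a library except that without ZJU-37 replicate 1 (adjusted p from 0.0822 to 0.143). Kcnma1 measured 15.2, 13.2 and 9.45 CPM with DMSO and 11.95, 9.94 and 10.4 CPM with ZJU-37, and its groups overlapped (log2 fold change -0.23, adjusted p = 0.501). Per kb, Kcnmb4 stood 4.36, 5.07 and 6.67 times above Kcnma1 in the DMSO libraries and 4.31, 3.71 and 3.92 times above it in the ZJU-37 libraries. Kcnmb1, Kcnmb2 and Kcnmb3 had at most 10 counts.

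No call was made in the small- and intermediate-conductance calcium-activated channels (Kcnn), where 4 of 4 genes were tested with edgeR, 1 had an unadjusted p under 0.05 and DESeq2 called 0. Kcnn4, the intermediate-conductance channel of immune and glial cells, measured 0.876, 2.20 and 1.75 CPM with DMSO and 1.46, 2.18 and 2.23 CPM with ZJU-37 (log2 fold change 0.27, adjusted p = 0.689). The EAG, ERG and ELK channels (Kcnh) gave 0 calls among 7 tested genes with edgeR and with DESeq2, and 2 had an unadjusted p under 0.05. These were Kcnh2 and Kcnh8. Kcnh2, the ERG pore, had a log2 fold change of 0.36 (adjusted p = 0.168, and 0.0200 with the block), and Kcnh5 one of -0.74 (adjusted p = 0.304). The silent subunits (Kcnf, Kcng, Kcns and Kcnv), which form no channel on their own, gave 0 calls among 5 tested genes with either tool and 1 unadjusted p under 0.05, that of Kcnf1. It had 17.8, 12.3 and 16.8 CPM with DMSO and 12.6, 10.1 and 11.5 CPM with ZJU-37 (log2 fold change -0.45, adjusted p = 0.129, and 0.0103 with the block).

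The single-pass Kcne subunits, which slow or block voltage-gated pores, also gave 0 calls with edgeR and with DESeq2 among 3 tested genes, with no unadjusted p under 0.05. Kcne4, the highest of them, measured 5.11, 5.48 and 2.92 CPM with DMSO and 2.49, 3.69 and 1.57 CPM with ZJU-37. Replicate 3 was lowest and replicate 2 highest in both groups, which overlapped. Kcne4 had a log2 fold change of -0.80 (95% interval -1.70 to 0.10, adjusted p = 0.224, and 0.0131 with the block). Kcnrg, a soluble regulator that keeps voltage-gated subunits from assembling, had a log2 fold change of -0.32 (adjusted p = 0.532).

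**Figure D5:**
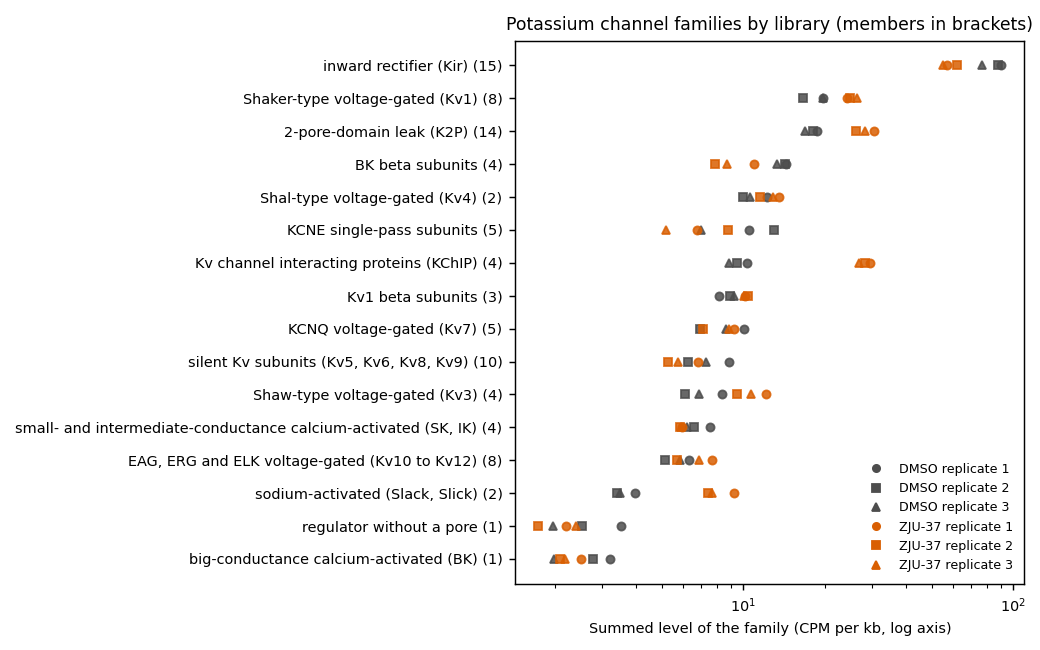
Summed level of potassium channel families in each library, in CPM per kb on a log axis, with the number of members in brackets and marks as in the plot of levels. The ZJU-37 marks lie left of the DMSO marks for the inward rectifiers (58.0 against 84.8 on average) and right of them for the leak channels (28.3 against 17.9), the Kv channel interacting proteins (28.2 against 9.56) and the sodium-activated channels (8.11 against 3.62).

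Leaving aside Kcnj16, with a library at 0, the ratio of the highest to the lowest DMSO library was largest for Kcnv1 (9.05), Kcnc2 (7.76) and Kcna5 (6.06), whose means over all libraries were 0.584, 0.583 and 1.04 CPM. Of the 66 tested genes, 27 had the same order of replicate numbers in both groups, and in 15 of these replicate 2 was lowest and replicate 1 highest, among them Kcnc1, Kcnd3 and Kcnk10. The neuron markers had that order as well, with sums of 1226, 906 and 1017 CPM under DMSO and 1036, 787 and 888 CPM under ZJU-37. All 12 were tested with edgeR, 0 were called, 3 had an unadjusted p under 0.05, DESeq2 called 2 and the block 5 as lower. The OPC markers Pdgfra, Cspg4 and Ptprz1 had that order too, and the other OPC markers did not have it in both groups. Pdgfra measured 450, 358 and 374 CPM with DMSO and 1124, 651 and 755 CPM with ZJU-37. How many of all tested genes had the same order in both groups was not counted. The part of neurons or of OPCs in the values of these members was not tested.

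Other genes that handle potassium were taken from lists of channel partners, of HCN and intracellular potassium channels, of the sodium-potassium pump and of potassium-coupled cotransporters. Of all tested genes, 9.43% rose and 5.58% fell, and with the block 16.2% and 15.9% did. The lists are short, and no test was run on them as sets. Of the 12 tested channel partners 0 rose and 1 fell, which was Dpp10. With the block, Dlg1 (log2 fold change -0.25) and Lgi3 (-0.79), scaffold and secreted partners of Shaker-type channels, were lower as well, and Dpp6 was higher. Of the 10 tested pump genes 2 rose. The regulatory subunit Fxyd6 had means of 48.2 and 98.7 CPM (log2 fold change 1.03, SE 0.12, adjusted p = 0.00193). The 7 HCN and intracellular channel genes and the 5 tested cotransporter genes gave 0 calls with edgeR and with DESeq2, with 0 and 1 unadjusted p under 0.05.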

How the data were processed

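Poly-A RNA of OPC cultures was sequenced in 6 libraries (3 DMSO, 3 ZJU-37). Per the labels and the study's methods, the authors made non-stranded libraries and deposited raw read counts per gene. The submitters' processing notes name HISAT2 2.0.5, StringTie 1.3.3b and featureCounts 1.5.0 without their roles, and the genome build is not given in the sources used here. The deposited FPKM values and the authors' own DESeq2 fold changes and p-values were not used. Without strand, reads of overlapping genes on opposite strands cannot be told apart.

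Members were all genes with a symbol beginning with Kcn. Members, families, gene lists and markers were chosen with earlier results of these data known. Counts were filtered with filterByExpr, scaled by TMM (factors between 0.981 and 1.04) and tested on all 6 libraries by the quasi-likelihood F test (robust glmQLFit) of edgeR 4.0.16 under R 4.3.3, with Benjamini-Hochberg adjustment over 14670 genes. Standard errors and 95% intervals were derived from the fold change and its F statistic. Depth was between 13935865 and 24097927 counts per library. Libraries differed by a chi-square of at least 11.3 per degree of freedom, so none was a duplicate. Code was tested on simulated data. Gene lengths, an annotation value of the deposited table, served for CPM per kb.

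Both groups carry replicate numbers 1 to 3 in the sample labels. Over 14670 genes, which are no independent replicates, the deviation from the group mean was compared between libraries. Pearson's r was 0.39, 0.31 and 0.33 where the number was the same and lay between -0.27 and -0.01 where it was not. Deviations from a group mean cancel out within the group. Positive values for equal numbers therefore make those for different numbers negative on average, and the latter are no separate evidence. The numbers were taken to pair the libraries, and a fit with the replicate block was run.

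Genes named by rule were the called members, the 12 with the highest CPM per kb, the 5 largest changes each way among members with a mean of at least 1 CPM, 12 channels known from glial recordings, those nearest the threshold and partners of named channels. Some items are not reported here. Other members were named after their values were seen. Alternatives were RLE factors, library size only, no filter, at least 10 counts in every library, DESeq2 1.42.0, the block and leaving out each library. Promoters came from RefSeq (GRCr8).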

Additional observations from a re-analysis of the deposited data

How the results depend on the processing

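The main counts were 12 members higher, 3 lower and 2201 genes called in all. With the replicate block they were 16, 9 and 4705. Every call among the 15 was kept with the block, and apart from the 10 members called with the block only, the block changed no call of a member. Leaving out 1 library gave 7 to 10 members higher, 1 to 3 lower and 1306 to 1927 genes in all. RLE factors, library size only, no filter, at least 10 counts in every library and DESeq2 gave 11 to 12 members higher, 2 to 4 lower and 2091 to 2577 genes in all. The count under the stricter filter left out Kcna7 and Kcnj16 of the called genes, which could not be tested there. Under all alternatives together, values of the 15 called genes kept direction and call 145 times and direction only 33 times, all but 1 of these in fits that left out a library.

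The sign of the log2 fold change turned in at least 1 alternative for 17 of the 66 tested members, 0 of them called, with sizes of up to 0.43 (Kcnj1). Of the members named by rule, Kcnab2, Kcnk2 and Kcnn4 did so. The log2 fold change of Kcnab2 was 0.0060 with library size only and lay between -0.076 and 0.047 when 1 library was left out, above 0 without DMSO replicate 2 (0.01) or ZJU-37 replicate 1. In the same fits that of Kcnk2 lay between -0.031 (without DMSO replicate 2) and 0.44, and that of Kcnn4 between -0.0088 (without DMSO replicate 1) and 0.55. The cause was not tested. DESeq2 added Kcnj10 as lower. The median log2 fold change of all genes was between -0.03 and 0.01 in all fits.

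Low members limit what these depths can show. The 26 untested genes had at most 18 counts, and Kcnj16, Kcna7, Kcnab3 and Kcnk5 rest on fewer than 100 counts in each library. A member without a call is not shown to be equal between the groups.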
